A study of Mus musculus with 8 samples.

Results

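In the footpads of mice with a knockout of Foxc1, 144 of the 41999 array probes in the deposited value table read lower on every knockout array than on any wild-type array, by at least 1.5-fold on average. The members were selected on these measured values. A probe was kept if its footpad signal (Cy3) was well above background on all 4 wild-type arrays, its highest knockout value lay below its lowest wild-type value, and the knockout mean was lower than the wild-type mean by at least 0.176 on the log10 scale. The detection condition left 26620 probes, and the members are 0.541% of them. Lower values in the knockout are therefore how the members were chosen and are described without a test.

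Each array carried RNA of wild-type or Foxc1 conditional knockout (cKO) footpads in Cy3 and a universal mouse reference RNA in Cy5, with 4 arrays per genotype and no dye swap. All mice had the C57BL6 background, and the tissue was the dome of the footpad, taken as a punch biopsy and frozen. The driver of the conditional deletion, the age of the mice and whether a sample held 1 mouse or several are not given in the sources used here. Slide 1 held replicates 1 and 2 of both genotypes and slide 2 held replicates 3 and 4. Position on the slide went with genotype, positions 1 and 2 being wild type and 3 and 4 cKO, so in Cy3 the genotype cannot be told apart from the position. The labels number 4 replicates per genotype and also speak of 2. The p-values below cover the spread among these arrays, part of which may be technical.

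Foxc1 is a transcription factor of the forkhead family, whose members bind DNA through a winged-helix domain and act in the development of many organs. The mouse footpad is thick, hairless skin that holds eccrine sweat glands, in which a coiled secretory part in the dermis makes sweat and a duct carries it to the skin surface. The series title describes mice without Foxc1 as unable to sweat, and the comparison asks which transcripts differ in their footpads. In a punch of whole tissue, fewer cells of a type and less RNA per cell cannot be told apart.

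The arrays name each probe by an identifier and by its 60 bases, and 0 of the 42006 probe identifiers matched the 49997 genes of the RefSeq table used here (GRCm38.p6). The members are therefore given by identifier and sequence, and Foxc1 itself, marker genes and gene groups were not analysed here. The 6 members with the largest falls in the table are shown first. For 1 of them, Z00071224-1, the cKO signal was too dim to give more than a bound. All sequences run 5′ to 3′ as the scanner files give them, and capitals mark the polyadenylation hexamers AATAAA or ATTAAA, the signals near the 3′ end of most mRNAs.
Z00024586-1: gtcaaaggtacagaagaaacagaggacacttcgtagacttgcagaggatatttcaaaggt
Z00072088-1: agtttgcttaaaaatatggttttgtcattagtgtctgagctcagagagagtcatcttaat
Z00052133-1: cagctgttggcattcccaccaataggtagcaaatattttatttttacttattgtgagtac
Z00022421-1: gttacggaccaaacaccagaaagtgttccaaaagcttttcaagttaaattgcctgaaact
Z00071224-1: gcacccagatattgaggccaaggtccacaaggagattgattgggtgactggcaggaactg
Z00028022-1: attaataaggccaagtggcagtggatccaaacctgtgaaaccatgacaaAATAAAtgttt

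The next 6 probes form 3 pairs of members that share a stretch of sequence, marked in capitals. They are shown because both probes of a pair can bind the same transcript.
Z00059123-1: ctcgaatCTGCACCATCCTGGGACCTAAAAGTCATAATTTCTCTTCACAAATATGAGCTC
Z00038067-1: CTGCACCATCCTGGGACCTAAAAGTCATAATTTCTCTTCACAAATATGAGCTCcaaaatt
Z00004889-1: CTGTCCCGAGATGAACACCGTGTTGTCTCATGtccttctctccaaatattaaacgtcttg
Z00075322-1: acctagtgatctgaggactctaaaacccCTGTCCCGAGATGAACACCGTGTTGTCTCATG
Z00075027-1: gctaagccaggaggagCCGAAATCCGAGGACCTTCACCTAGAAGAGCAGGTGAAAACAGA
Z00053732-1: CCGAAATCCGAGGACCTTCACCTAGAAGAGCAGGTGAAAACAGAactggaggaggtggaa

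A further member, Z00023413-1, shares 21 bases (capitals) with Z00031577-1, which is no member and read higher in cKO.
Z00023413-1: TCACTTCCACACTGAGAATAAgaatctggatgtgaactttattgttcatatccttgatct
Z00031577-1: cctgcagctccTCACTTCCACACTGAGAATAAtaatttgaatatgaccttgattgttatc

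The following 4 members, singled out after their values were seen, are shown because each pair of them varied alike among the cKO arrays without a shared stretch of 20 bases. The first 2 were low on 1 cKO array, and the last 2 were high on another.
Z00067138-1: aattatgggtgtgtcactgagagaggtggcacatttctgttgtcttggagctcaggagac
Z00065995-1: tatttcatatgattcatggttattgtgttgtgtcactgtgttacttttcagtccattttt
Z00023886-1: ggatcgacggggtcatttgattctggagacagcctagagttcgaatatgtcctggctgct
Z00043915-1: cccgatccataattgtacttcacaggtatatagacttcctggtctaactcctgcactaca

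In 2 members a stretch (capitals) lies within a promoter window of the RefSeq table, which runs from 250 bases before to 50 bases after a gene's start.
Z00064347-1: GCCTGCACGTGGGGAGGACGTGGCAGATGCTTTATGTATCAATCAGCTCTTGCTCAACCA
Z00075798-1: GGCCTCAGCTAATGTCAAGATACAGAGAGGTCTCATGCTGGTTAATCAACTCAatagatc

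Values below are log2 values of the deposited table, which express Cy3 signal relative to the Cy5 reference of the same spot, returned to the scale of a signal. A difference of 1 is therefore 2-fold. The largest fall in the table was at Z00024586-1, which read 9.74, 9.43, 10.15 and 9.12 on wild-type arrays 1 to 4 and 5.21, 4.29, 4.52 and 5.18 on cKO arrays 1 to 4. Its means were 9.61 ± 0.44 and 4.80 ± 0.46 (SD, n = 4 each), a difference of -4.81 or 28.1-fold. Its groups were separated by 3.91 units, the widest gap among the 144 members. The Cy5 signal of this probe was not well above background on any array, so its ratio rests on dim reference signal. In cKO, 1 of 4 arrays had Cy3 signal well above background there, so the size of the fall is uncertain. In Cy3 alone, scaled to each array's 75th percentile, the difference was -4.63, and after normexp and loess it was -2.37, a smaller fall than that of Z00022421-1 on the same scale (-3.23).

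Z00072088-1 read 9.40, 9.93, 9.92 and 9.98 in wild type against 5.62, 5.22, 5.94 and 5.68 in cKO, 18.3-fold lower. Z00052133-1 read 9.08, 9.85, 9.10 and 9.75 in wild type against 5.85, 5.36, 5.73 and 4.76 in cKO, 16.2-fold lower. In both, the cKO arrays lay more than 3 units below every wild-type array, with 3 of the 4 cKO arrays still well above background in Cy3. Their Cy5 signal was well above background on all 8 arrays and differed by -0.01 and -0.08 between the groups, so the difference lay in Cy3.

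Z00022421-1 was the brightest of the 6 largest falls. It read 12.65, 12.88, 12.66 and 12.97 in wild type against 9.40, 9.14, 9.13 and 9.5 in cKO, a difference of -3.50 or 11.3-fold. Its Cy3 signal was 5800 to 7980 on the wild-type arrays and 620 to 810 on the cKO arrays, well above background on all 8. The Cy5 signal moved by 0.05, and the difference was -3.46 in Cy3 alone and -3.23 after normexp and loess. Of the 6 largest falls it was the one whose size changed least between the table and the loess ratios, in which an offset draws dim signals together.

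The other members whose table values fell by over 4-fold ranged from dim to bright. Z00071224-1 read 7.63, 7.15, 6.99 and 8.04 in wild type against 4.51, 3.62, 3.92 and 4.25 in cKO, and Z00028022-1 read 8.38, 7.95, 8.33 and 8.30 against 4.60, 6.07, 4.22 and 5.52. The first was well above background on none of the cKO arrays and the second on 2. Z00009742-1 read 8.72, 9.54, 8.57 and 8.79 in wild type against 6.70, 6.30, 5.94 and 6.35 in cKO, and was 5.97-fold lower. Z00064347-1, the dimmest of the 12, read 6.50, 6.44, 6.37 and 5.89 against 3.32, 5.03, 4.60 and 4.00. It too was well above background on no cKO array.

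Among the brighter ones, Z00009236-1 had the narrowest cKO group. It read 14.25, 14.56, 14.48 and 14.11 in wild type against 11.90, 11.92, 11.89 and 12.10 in cKO, which is 11.95 ± 0.10 (SD, n = 4) and 5.26-fold lower. Z00070973-1 read 13.67, 14.16, 14.23 and 14.18 in wild type against 11.80, 11.78, 12.18 and 12 in cKO. Its cKO arrays were all well above background, and in wild type its ratio to the reference was among the highest of the members. Z00045784-1 read 11.01, 11.11, 10.49 and 11.12 in wild type against 9.01, 8.90, 9.14 and 8.63 in cKO, 4.03-fold lower. Z00023413-1 was less even in wild type, at 8.97, 9.92, 10.09 and 10.49, than in cKO, at 7.43, 7.92, 7.50 and 7.61.

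Most falls were smaller. By the table's values 44 of the 144 members were at least 2-fold lower, 12 at least 4-fold and 6 at least 8-fold, while 100 were under 2-fold. With the 2 members that were above background on no cKO array taken at their bounds (below), these counts were 42, 10 and 5. Those bounds are on a scale with an offset, which makes folds of dim probes smaller. Members above background on only some cKO arrays kept their table values, so these counts mix 2 scales. The median difference was -0.82, or 1.77-fold, against -0.0228 over all 26620 probes detected in wild type. Of those 26620 probes, 1468 or 5.51% had no overlap between the groups with the lower values in cKO, and 340 passed the limits on detection and fold with or without overlap. The mirrored rule, with cKO above wild type, held for 503 probes. Detection was still asked of the wild-type arrays, so probes detected only in cKO were left out of this count. The members nearest the limit were Z00031027-1, Z00053732-1 and Z00072299-1, at 1.51-fold, 1.507-fold and 1.501-fold. The probes just outside it were Z00024576-1, Z00074637-1 and Z00056777-1, at 1.494-fold, 1.493-fold and 1.492-fold, so the limit cuts through a continuous range. The gap between the lowest wild-type and the highest cKO array was over 1 unit in 16 members, over 0.5 in 36 and under 0.1 in 20.

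Most members remained measurable in cKO. In Cy3, 132 of the 144 (91.7%) were well above background on all 4 cKO arrays, 5 on 3 arrays, 3 on 2, 2 on 1 and 2 on none. Over all probes detected in wild type the share above background on all 4 cKO arrays was 99.3%. The 2 members above background on no cKO array were Z00071224-1 and Z00064347-1, so their cKO level is only a bound. With each array's lowest signal well above background in place of a lower one, after background correction with an offset of 50, they were at least 1.75-fold and at least 1.30-fold lower. At Z00064347-1 the bound and the measured cKO mean were both 6.29 on that scale, so there the bound is in effect the measured value. Their differences of -3.38 and -2.06 in the table, which has no such offset, are larger than these bounds.

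In nearly all members the footpad channel taken alone was lower as well. In Cy3 alone 142 of the 144 were lower on average in cKO, with a median difference of -0.83, against -0.017 over all probes detected in wild type. The groups did not overlap in Cy3 alone for 113 members and overlapped for 31. Cy3 enters the ratio that the rule used, so these counts are a description, and the share over all detected probes was not computed. With the rule applied to Cy3 alone, 179 of the 26620 detected probes passed, 107 of them members. The Cy5 signal of the same reference RNA differed by a median of -0.002 over the members and 0.009 over the detected probes, and stayed within 0.5 units for 129 members. No spot of a member was marked as an outlier or saturated. In a limma fit of Cy5 alone, 0.0% of 32692 probes passed a Benjamini-Hochberg false discovery rate (FDR) of 0.05 and 534 had an unadjusted p under 0.05. Of the 131 members tested there, 0 passed the FDR limit and 10 had an unadjusted p under 0.05, a larger share than among all tested probes. Cy5 also enters the ratio that the rule used.

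In 8 members, however, Cy5 rose by more than Cy3 fell. They were Z00019810-1, Z00055978-1, Z00020491-1, Z00031087-1, Z00035475-1, Z00030741-1, Z00065245-1 and Z00051549-1, picked out after their values were seen. None was well above background in Cy5 on all 8 arrays, and Z00031087-1 was on 0. Z00055978-1 had Cy3 signals of 255, 203, 365 and 423 in wild type against 309, 289, 447 and 400 in cKO, which overlap. Its Cy5 signals were 8.32, 7.33, 20 and 21.2 against 47.1, 25.7, 35.6 and 24.2. In Z00035475-1 Cy3 was higher in cKO by 0.24 and Cy5 by 1.14, with Cy5 signals of 14.7 to 20.2 in wild type against 25 to 65.1 in cKO. The lower values of these 2 members in the table therefore came with no lower footpad signal. Over all members, Cy5 was well above background on all 8 arrays for 125 (86.8%), on 1 to 7 arrays for 16 and on none for 3, against 96.8% on all 8 arrays among the detected probes.

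In 8 other members Cy5 was lower by over 0.5 units, so the fall was larger in Cy3 alone than in the ratio. Which reading is nearer to the transcript level was not tested. At Z00068172-1 both channels were low on cKO array 4, with Cy3 of 592 and Cy5 of 1710, against 3010 and 8210 on cKO array 1. Z00068172-1 and Z00027043-1 overlapped between the groups in Cy3 alone. Cy5 fell most at Z00025366-1, the brightest member, whose Cy3 signal was 90900 to 233000 in wild type against 22800 to 41700 in cKO. Its table values were 16.76, 17.24, 16.77 and 16.89 in wild type against 15.23, 15.13, 15.29 and 15.01 in cKO, 3.36-fold lower. In Cy3 alone its difference was -2.85, while Cy5 moved by -1.09. Z00070973-1 showed the same arrangement, with -2.86 in Cy3 and -0.74 in Cy5. Cy5 carried the same RNA on every array, and whether bright Cy3 signal entered the Cy5 reading of these spots was not tested.

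Probes with shared sequence give repeated readings within each array. In the 3 pairs of members, both probes were lower by similar amounts. Z00059123-1 and Z00038067-1, which share 53 bases, differed by -0.98 and -0.90 between the genotypes. Z00004889-1 and Z00075322-1, with 32 shared bases, differed by -0.90 and -0.79. Both read 13.01 to 13.33 on all wild-type arrays and 11.91 to 12.66 on all cKO arrays. Z00075027-1 and Z00053732-1, with 44 shared bases, differed by -0.69 and -0.59. Both values of each pair were selected by the rule, so the likeness of the pairs is a description.

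Another 8 members each shared at least 20 bases with 1 probe that is no member, and 6 of these 8 probes were lower on average in cKO. For 1 of these 6, Z00074619-1, the groups did not overlap, with a difference of -0.56 against -0.65 at its member Z00046117-1. Z00055204-1 shares 55 of its 60 bases with Z00023226-1 and fell short of the rule by its detection, on 3 of 4 wild-type arrays, and by overlap. It read 6.94, 9.01, 5.46 and 6.52 in wild type against 5.83, 5.69, 5.42 and 5.73 in cKO, and wild-type array 2 was highest in both probes. Z00041697-1, which shares 35 bases with Z00075312-1, differed by -1.02 against -1.04 but overlapped. Of the others, Z00072518-1, Z00049863-1 and Z00030076-1 differed by -0.37, -0.99 and -0.33.

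The remaining 2 of these 8 probes read higher in cKO. Z00075619-1 was well above background on no wild-type array and had a difference of 0.44. Z00031577-1 was bright, at 16.84, 16.82, 16.64 and 16.90 in wild type against 17.60, 18.07, 17.40 and 18.12 in cKO, a difference of 1.00. Its groups did not overlap, in the direction opposite to that of Z00023413-1, with which it shares 21 bases. Outside those bases the 2 probes read different sequence, as the lines above show, and whether they belong to the same transcript was not tested.

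The members varied as much in cKO as in wild type. The median SD over 4 cKO arrays was 0.232, against 0.228 over the wild-type arrays, and the SD was larger in cKO for 70 of the 144. Both medians were above those of all detected probes, 0.122 and 0.123. Replicates 1 to 4 were the lowest cKO array for 36, 36, 29 and 43 members and the highest for 44, 28, 34 and 38. The rule asks every cKO array to be low, so these counts cannot tell whether a single array carried members past the fold limit. Without 1 cKO array, 124 to 139 of the 144 members still met the rule. Among the cKO arrays 23 members spanned over 1 unit, against 8 among the wild-type arrays.

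The widest cKO spans belonged to Z00067138-1 and Z00065995-1. Z00067138-1 read 11.54, 11.21, 11.30 and 11.65 in wild type against 10.21, 10.37, 6.75 and 10.67 in cKO. Z00065995-1 read 10.11, 9.99, 10.06 and 10.34 in wild type against 8.97, 9.19, 5.73 and 9.30 in cKO. In both, 3 cKO arrays lay about 1 unit below wild type, and cKO array 3 lay over 3 units below the other cKO arrays. The value of the first minus that of the second stayed between 1.02 and 1.43 on all 8 arrays, and their deviations from the group means correlated with r = 0.998 over these 8 arrays, which is given as a description. The Cy3 signal of Z00067138-1 on cKO array 3 was 189, against 1180 to 2370 on the other cKO arrays, and its Cy5 signal there was 750, the highest of the 8 arrays. These 2 probes share no stretch of 20 bases.

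Such a drop on cKO array 3 was rare. Of the 26620 detected probes, 11 lay at least 4-fold below the other 3 cKO arrays on that array, and 3 of these were members. The third was Z00062963-1, which read 5.74, 4.66, 2.56 and 4.94 in cKO and was above background on 1 cKO array. On cKO arrays 1, 2 and 4 the counts were 5, 3 and 25 probes, with 0 members on each. A drop on 1 cKO array lowers the cKO mean and cannot make the groups overlap. The rule can therefore favour such probes, so the counts of members are a description. Without cKO array 3 the differences of Z00067138-1 and Z00065995-1 were -1.01 and -0.97 in place of -1.92 and -1.83.

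A second pair was high on cKO array 4. Z00023886-1 read 10.59, 10.49, 10.01 and 10.00 in wild type against 8.26, 8.22, 8.28 and 9.78 in cKO. Z00043915-1 read 12.04, 12.07, 11.40 and 11.45 in wild type against 9.86, 10.21, 9.81 and 11.40 in cKO. In both, the first 3 cKO arrays were far below wild type, while array 4 came close to the wild-type arrays of its own slide. Array 4 moved in Cy3, with 983 against 303 to 372 at Z00023886-1, and the Cy5 signals of this probe were 2740 to 3250 on all cKO arrays. The difference between the 2 probes stayed between 1.39 and 1.99 on all 8 arrays, with r = 0.964 between their deviations. For both pairs r is that of the best match among the 23 members spanning over 1 unit in cKO. Such best matches ranged from 0.683 at Z00019810-1 to 0.998, with 0.958 at Z00062963-1 and Z00033485-1. Without cKO array 4 their differences were -2.02 and -1.78 in place of -1.64 and -1.42.

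Since the rule asks every cKO array to lie below every wild-type array, each member is lower on both slides by choice. Their median difference was -0.84 on slide 1 and -0.82 on slide 2, and the fall was larger on slide 1 for 78 members and on slide 2 for 66. Whether the fall differed between the slides was tested with limma. The rule used the same 8 arrays, and its demand for no overlap limits how far the falls of a member can differ between slides, so for the members these counts are a description. The interaction passed an FDR of 0.05 for 4 of 29876 probes (0.0134%) and for 0 of the 144 members. At an unadjusted p under 0.05 there were 1294 probes (4.33%) and 11 members (7.64%). The smallest p among the members was at Z00039747-1, which differed by -1.13 on slide 1 and -0.30 on slide 2, an interaction of 0.79 ± 0.11 (SE) with a limma unadjusted p of 0.000165 and an adjusted p of 0.511. Without cKO replicate 3, which left 1 cKO array on slide 2, the interaction was 1.65 at Z00023886-1 and 1.86 at Z00043915-1. Without cKO replicate 4 it was -2.41 at Z00065995-1 and -2.86 at Z00067138-1. In these fits the slide with 1 cKO array left takes its spread from the other groups. These are the members with 1 cKO array apart from the rest. The interaction there rests on that array and does not show a difference between the slides.

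Choosing probes on 1 slide and reading them on the other uses separate ratios for each step, and was done after the data were seen. Genotype went with the same positions on both slides, so an effect of position would recur on the other slide. The labels also speak of 2 replicates, so the arrays of the slides may not be separate samples. The shares below are therefore a description. The rule applied to slide 1, with detection on all 4 wild-type arrays, chose 479 probes with a median difference of -0.81. On slide 2, whose ratios this choice did not use, their median was -0.31, 365 of them (76.2%) were lower in cKO, and 118 (24.6%) passed the same limits there. Among all detected probes 56.0% were lower on slide 2 and 1.38% passed the limits. In the other direction the rule chose 368 probes on slide 2. On slide 1, 279 of these (75.8%) were lower, against 55.4% of all detected probes, and 118 (32.1%) passed the limits, against 1.80%. The 118 probes are the same in both directions, being those that pass on both slides. The shares of 1.38% and 1.80% are those of the detected probes chosen on slide 2 and on slide 1. The count of passing probes in the second direction is therefore no separate result. The fall was thus smaller on the slide not used for the choice, and most probes chosen on 1 slide did not pass on the other.

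A limma fit over all probes after normexp and loess, which uses the same contrast as the rule and adds no independent support, called 270 of 29879 probes lower in cKO, or 0.904%. Of the 144 members, 96 (66.7%) were among them and 0 were called higher. All 12 of the largest falls were called. Of the 44 members at least 2-fold lower in the table, 32 were called. The other 12 included Z00067138-1, Z00065995-1 and Z00043915-1, with 1 cKO array apart, and Z00055978-1 and Z00019810-1, with the change in Cy5. On slide 1 alone 73 of 29857 probes were called lower, 30 of them members. On slide 2 alone 5 of 29788 were called lower, 4 of them members, so the calls fell over all probes as well.

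Many members were stronger in wild-type footpad than in the reference RNA. The wild-type log2 ratio of Cy3 over Cy5 after normexp and loess had a median of 0.88 over the members and 0.09 over all detected probes. It was above 0 in 107 members (74.3%), against 55.4% of detected probes, and at least 2 in 28 (19.4%), against 8.31%. With processed signals 105 members were above the reference, against 50.9% of detected probes. In cKO 90 members were above the reference, and 17 crossed from above it in wild type to below it. A rule that asks for lower values in cKO can favour high wild-type ratios, and without a dye swap these ratios include any dye effect.

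The highest wild-type ratios were 6.83 ± 0.24 at Z00025366-1 and 5.86 ± 0.38 at Z00070973-1 (SD, n = 4 each). In cKO these 2 probes remained above the reference, at 4.94 ± 0.15 and 3.48 ± 0.23. Z00009236-1 went from 2.59 ± 0.20 in wild type to 0.21 ± 0.10 in cKO, so that its footpad and reference signal were nearly equal. Z00024586-1 went from 2.57 ± 0.39 to 0.21 ± 0.12, but both of its signals were dim in cKO. They were 24.0 to 46.8 in Cy3 and 8.12 to 12.5 in Cy5. The offset draws such dim signals together, so this ratio does not show equal levels. Z00022421-1 did the reverse of Z00009236-1, near the reference in wild type at 0.13 ± 0.16 and far below it in cKO at -3.10 ± 0.16. The members were dimmer than most detected probes. Their median log2 Cy3 signal in wild type was 9.12, with a range from 6.0 to 17.34, against 10.45. The dimmest 25% of the detected probes held 45 members and the brightest 25% held 15.

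The member sequences were close to those of other detected probes. Their median GC content was 43.3%, against 45.0%. A polyadenylation hexamer (AATAAA or ATTAAA, read on the printed strand) was present in 21 members (14.6%) and in 10.8% of detected probes, and on the opposite strand in 6.25% and 5.13%. At least 1 of the 3 forward frames was free of stop codons in 84.7% of members and in 82.8% of detected probes, so the sequences do not tell coding from noncoding probes apart. Among the 44 members at least 2-fold lower in the table the hexamer share was 9.09%. On the array the members were spread out, with 49.3% in the upper rows and 54.9% in the left columns, against 49.7% and 48.9% of detected probes.

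The 2 members with a stretch in a promoter window had little else in common. All 60 bases of Z00064347-1 lie at chr13:67098060-67098119 on the minus strand (GRCm38.p6), bases 108 to 167 of the window of Zfp708, which is before the annotated start of that gene. In Z00075798-1, 53 bases lie at chr9:83948576-83948628 on the plus strand, bases 46 to 98 of the window of Bckdhb, a gene for a subunit of the enzyme complex that breaks down branched-chain keto acids, again before its start. Z00075798-1 was bright, at 14.58, 14.87, 14.80 and 15.06 in wild type against 14.06, 14.21, 14.09 and 14.03 in cKO, and was 1.66-fold lower. Which transcripts these 2 probes read was not tested, since the match gives their position and not their gene. Over the whole array 328 probes shared at least 30 bases with a window on the same strand and 250 on the opposite strand.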

How the data were processed

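RNA was measured on 8 two-colour Agilent arrays. Per the file headers, the spot intensity values come from Agilent Feature Extraction 9.5.1.1. Values of the deposited table are log10. Each equalled log10 processed Cy3 minus log10 processed Cy5 plus the probe's mean log10 Cy5 over the arrays, within 1.6e-04, with column medians of 2.395 to 2.406. Scale, centring and direction are thus known. Values are printed as log2. Control spots were left out and spots of a probe averaged. The members and lists were chosen with earlier results of these data known.

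Probes whose Cy3 signal was well above background on 4 or more arrays were tested with limma 3.58.1 in R 4.3.3 (lmFit, eBayes, two-sided, Benjamini-Hochberg) on log2 Cy3 over Cy5 after normexp (offset 50) and loess, leaving out outlier flags, with slide by genotype as an interaction. Cy5 alone was quantile-normalized. The rule and fits were run on simulated data. For the rule, the simulated noise was below the spread of the members and the planted fall was larger than that of most members. That run does not show how the rule performs at the members' own spread and fold. The number of arrays limits the precision. The probes named are the 12 largest falls, 3 on each side of the limit and those sharing at least 20 bases with a member; the others were chosen after their values were seen. Matching probes to proteins, the gene lists and the marker lists could not be used without gene names. Alternatives changed the rule, values, normalization, filters, blocks and arrays.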

Additional observations from a re-analysis of the deposited data

Results flagged for a closer look

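Dixon's ratio, the gap of the farthest of 4 arrays over the range of its group, marked 17 of 288 groups of the 144 members (5.90%), 12 in cKO and 5 in wild type, at a critical value of 0.829. Chance marks about 1 in 20 groups. Of the probes described in the text, 8 groups were marked. In cKO, Z00067138-1 (0.882) and Z00065995-1 (0.907) were low on replicate 3, Z00023886-1 (0.967) and Z00009236-1 (0.870) were high on replicate 4, and Z00046117-1 (0.939) was high on replicate 1. In wild type, Z00072088-1 (0.905) and Z00070973-1 (0.877) were low on replicate 1 and Z00045784-1 (0.833) was low on replicate 3. The spread behind these ratios differed widely, from 3.92 units among the cKO values of Z00067138-1 to 0.21 units among those of Z00009236-1. In each of them the groups of both genotypes remained apart, as the choice of the members requires.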

How the results depend on the processing

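The 144 members numbered 153 with detection on 3 of 4 wild-type arrays, 687 with no detection filter, 340 with no separation required, 44 at 2-fold, 125 with Cy5 detected on all arrays, 179 in Cy3 alone (107 of them members) and 74 after normexp and loess (67 members), where the median difference was -0.58 in place of -0.82. Slide 1 alone gave 523 probes (130 members) and slide 2 alone 431 (111 members), with fewer arrays. Any 7 arrays gave 167 to 225, with 124 to 139 of the members among them and medians of -0.84 to -0.78. Lower calls over all probes, 270, were 171 with processed signals, 168 with the deposited table, 150 with median centring, 109 in Cy3 alone, 73 on slide 1, 5 on slide 2 and 112 to 179 without 1 array. Members called, 96, were 30 on slide 1, 4 on slide 2 and 64 to 81 without 1 array, and stayed within 1.5 times under the other settings. The interaction, called at 4 probes, was called at 0 with the deposited table and at 0 to 42 without 1 array (42 without cKO replicate 3). Cy5 calls were 0 to 1 (1 without cKO replicate 3). Of 396 values for 33 described members, 372 moved by less than 1 SD, 21 moved further (14 after normexp and loess) and 3 reversed. These were Z00055978-1 in Cy3 alone (0.01) and Z00035475-1 in Cy3 alone (0.24) and after normexp and loess (0.01). The causes of these shifts were not tested.

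For arrays 1 to 4 the deviations of both genotypes correlated across probes with r = 0.2115, 0.188, 0.0891 and 0.4213, and no label pairs them, so they were not taken as pairs. With the replicate block 261 probes and 91 members were called lower, and with slide as a block 291 and 95. The planned match of translated probes to proteins was not run. Signal over background limits the 12 members not detected on every cKO array.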
